A study of Mus musculus with 24 samples.

Results

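A set of 10 genes of the circadian clock were followed through cultured D2.1 and D2A1 mouse mammary tumor cells and through the tumors that these lines formed, and 7 of them separated the lines in culture, where 44.9% of all genes did. In tumors 2 of the 10 did so in each host, against 32.6% of all genes in BALB/c and 32.1% in SCID-beige hosts. Whether the shares of members and of all genes differ was not tested. The 10 members were Nr1d1, Nr1d2, Dbp, Tef, Per1, Per2, Per3, Arntl (also called Bmal1), Clock and Ciart, found by symbol among 35275 gene identifiers in the tables of cultured cells and 54532 in the tables of tumors. The set was chosen by the level of Nr1d1 in D2.1 tumors, lower in BALB/c than in SCID-beige hosts, so that contrast is described without a test. The other 9 were taken as genes of the same system. All 10 members passed the filter on low counts in every comparison.

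The study sequenced bulk RNA from 6 groups. D2.1 and D2A1 both arose from D2 hyperplastic alveolar nodules of BALB/c mice, and the study used D2.1 as the dormant and D2A1 as the proliferative line. Each line was sequenced as 3 cultures in vitro, as 4 tumors in BALB/c hosts (BALB/cAnNTac, immunocompetent) and as 5 tumors in SCID-beige hosts, which carry the Prkdc scid and Lyst bg alleles, lack T and B cells and have defective NK cells. Hosts were females of 8 to 12 weeks, each received 1000000 cells in the mammary fat pad, and tumors were collected at about 500 mm3. Collection was by size, and the study reported that D2A1 growth was delayed in BALB/c hosts. Time in the host may therefore differ between groups and cannot be told apart from line or host. Each line stands for itself, and SCID-beige hosts keep macrophages and neutrophils. Nothing in the labels says that the 3 cultures of a line were grown apart. The study described the points of its in vitro experiments in general as technical replicates. The p-values in culture may therefore measure technical spread only. The time of day at collection, which sets the level of clock genes in synchronized tissue, was not given in the sources used here, so a difference between groups in collection time and a difference in clock gene expression cannot be told apart. The tissue was bulk, so fewer cells of a type and less RNA per cell cannot be told apart either.

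The clock of mammalian cells is a feedback loop of transcription. Clock and Arntl form a dimer that binds E-box sequences and activates the Per, Cry, Nr1d1, Nr1d2, Dbp and Ciart genes, Per and Cry proteins then block the dimer, and Ciart is a further repressor of it. Nr1d1 and Nr1d2 encode REV-ERB nuclear receptors that repress Arntl through ROR response elements. Dbp and Tef encode PAR bZIP factors that bind D-box sequences and carry the rhythm to output genes. The mammary gland, like most tissues, has its own clock, and cultured cells drift out of phase with each other unless they are synchronized.

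Sequences near the starts of 4 members are shown because the windows searched differ in the exact clock elements found. RefSeq windows of GRCm38.p6, from 250 bases before to 50 after the start, were given for 9 of the 10 members, some with several starts, and Per2 had none. Capitals mark the E-box CACGTG in Ciart, the D-box TTATGTAA in Per3 and the ROR response element in Arntl, whose searched letters are the 11 capitals shown and end in the nuclear receptor core AGGTCA. Each was searched on both strands, and TTACGTAA was searched as a second form of the D-box. Nr1d1 had none of these in its window and is shown without capitals. The Ciart, Per3 and Nr1d1 stretches are the 250 bases before the start, on the minus strand at chr3:95882229-95882478, chr4:151044666-151044915 and chr11:98775378-98775627. The Arntl stretch lies 17 to 46 bases after its second start, on the plus strand at chr7:113207528-113207557.
Ciart: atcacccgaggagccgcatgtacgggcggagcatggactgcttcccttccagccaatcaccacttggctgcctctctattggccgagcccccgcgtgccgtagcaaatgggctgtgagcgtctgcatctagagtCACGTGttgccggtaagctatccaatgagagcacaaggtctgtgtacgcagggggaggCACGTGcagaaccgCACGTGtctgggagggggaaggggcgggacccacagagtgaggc
Per3: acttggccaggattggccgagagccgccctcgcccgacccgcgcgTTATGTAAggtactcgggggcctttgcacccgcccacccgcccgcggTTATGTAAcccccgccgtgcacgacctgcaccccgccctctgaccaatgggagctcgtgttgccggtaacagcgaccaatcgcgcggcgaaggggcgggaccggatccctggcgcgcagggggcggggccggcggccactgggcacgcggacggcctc
Nr1d1: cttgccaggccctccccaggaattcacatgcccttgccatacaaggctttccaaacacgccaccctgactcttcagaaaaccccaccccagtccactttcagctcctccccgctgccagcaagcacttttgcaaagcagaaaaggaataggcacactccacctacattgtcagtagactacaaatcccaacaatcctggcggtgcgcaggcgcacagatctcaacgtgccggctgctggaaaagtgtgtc
Arntl: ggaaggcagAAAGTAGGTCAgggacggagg
The 3 E-boxes of Ciart began 116, 58 and 44 bases before the start, and 0.0883% of 32851 mouse windows held 3 or more. The 2 D-boxes of Per3 began 205 and 158 bases before the start, and 0.0244% of windows held 2 or more. At least 1 E-box was in 7.15% of windows, among them both windows of Tef and the first of the 2 windows of Per1. The Arntl element was in 7 of all windows, or 0.0213%, and the core alone in 16.3%, and no E-box or D-box was found in the windows of Nr1d2, Dbp, Arntl or Clock. The RefSeq start of Ciart lies inside the GENCODE M21 gene, so the last bases shown may be transcribed. A match is a description of letters and not a measured binding site.

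Libraries held 16837260 to 24818234 counts in culture and 13566949 to 18355153 in tumors, and the lowest count of any member in any library was 33, for Per2. Levels below are counts per 1000000 (CPM), scaled over all 24 libraries, and a fold change is fitted within its own comparison. The 6 macrophage markers summed to 1.22 to 10.6 CPM in cultures and 777 to 2810 CPM in tumors, while fibroblast markers were at 1986 to 2793 CPM in D2.1 cultures already, and the part of host cells in a member's tumor level was not tested. D2.1 BALB/c tumor 1 stood apart with 487 CPM of milk protein and 751 CPM of adipocyte markers, and D2.1 BALB/c tumor 4 with 124 CPM of skin keratinocyte markers. Libraries also differed in how counts followed the GC content of transcripts. This GC slope, the change of log2 CPM per 10 percentage points of GC, is given beside each result it touched. Exons of Nr1d1 overlap those of Thra, a thyroid hormone receptor gene on the opposite strand, over 263 bases or 8.55% of the Nr1d1 exonic bases. Those of Dbp overlap Sphk2 on the opposite strand over 539 bases or 18%, those of Tef overlap Gm17597 over 193 bases and those of Arntl overlap Gm45355 over 33 bases. The strand setting of the counting was not given in the sources used here, so reads in the shared bases cannot be assigned.

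Per length, by the gene lengths used for tumors, Tef was the most abundant member in every tumor group. Its FPKM (fragments per kilobase of gene, scaled to library size) was 85.5 ± 5.2 (SD, n = 4) in D2.1 BALB/c tumors and 43.0 ± 1.2 (SD, n = 4) in D2A1 BALB/c tumors. Below it, Nr1d1, Nr1d2, Per1 and Clock lay close together in D2.1 BALB/c tumors, at 12.8 ± 3.7, 13.0 ± 4.3, 16.0 ± 4.1 and 12.4 ± 7.2 FPKM (SD, n = 4), and did not differ beyond their spread. Per2 and Per3 were the lowest in all 6 groups, with 3.32 ± 1.2 and 3.38 ± 0.67 FPKM (SD, n = 4) in the same tumors. In D2.1 cultures Clock, Tef, Nr1d2 and Nr1d1 led together at 14.6 to 16.5 FPKM. In D2A1 cultures Nr1d2 led at 14.8 ± 1.8 FPKM (SD, n = 3) and Nr1d1 was the fifth at 4.56 ± 0.73 FPKM (SD, n = 3). The tables of cells and tumors use different gene lengths, so FPKM is not compared across them. For Tef the length was 4401 bases in cells and 1418 in tumors, and for Nr1d1 2721 and 1751. The order of members by FPKM therefore depends on the lengths used.

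**Figure D1:**
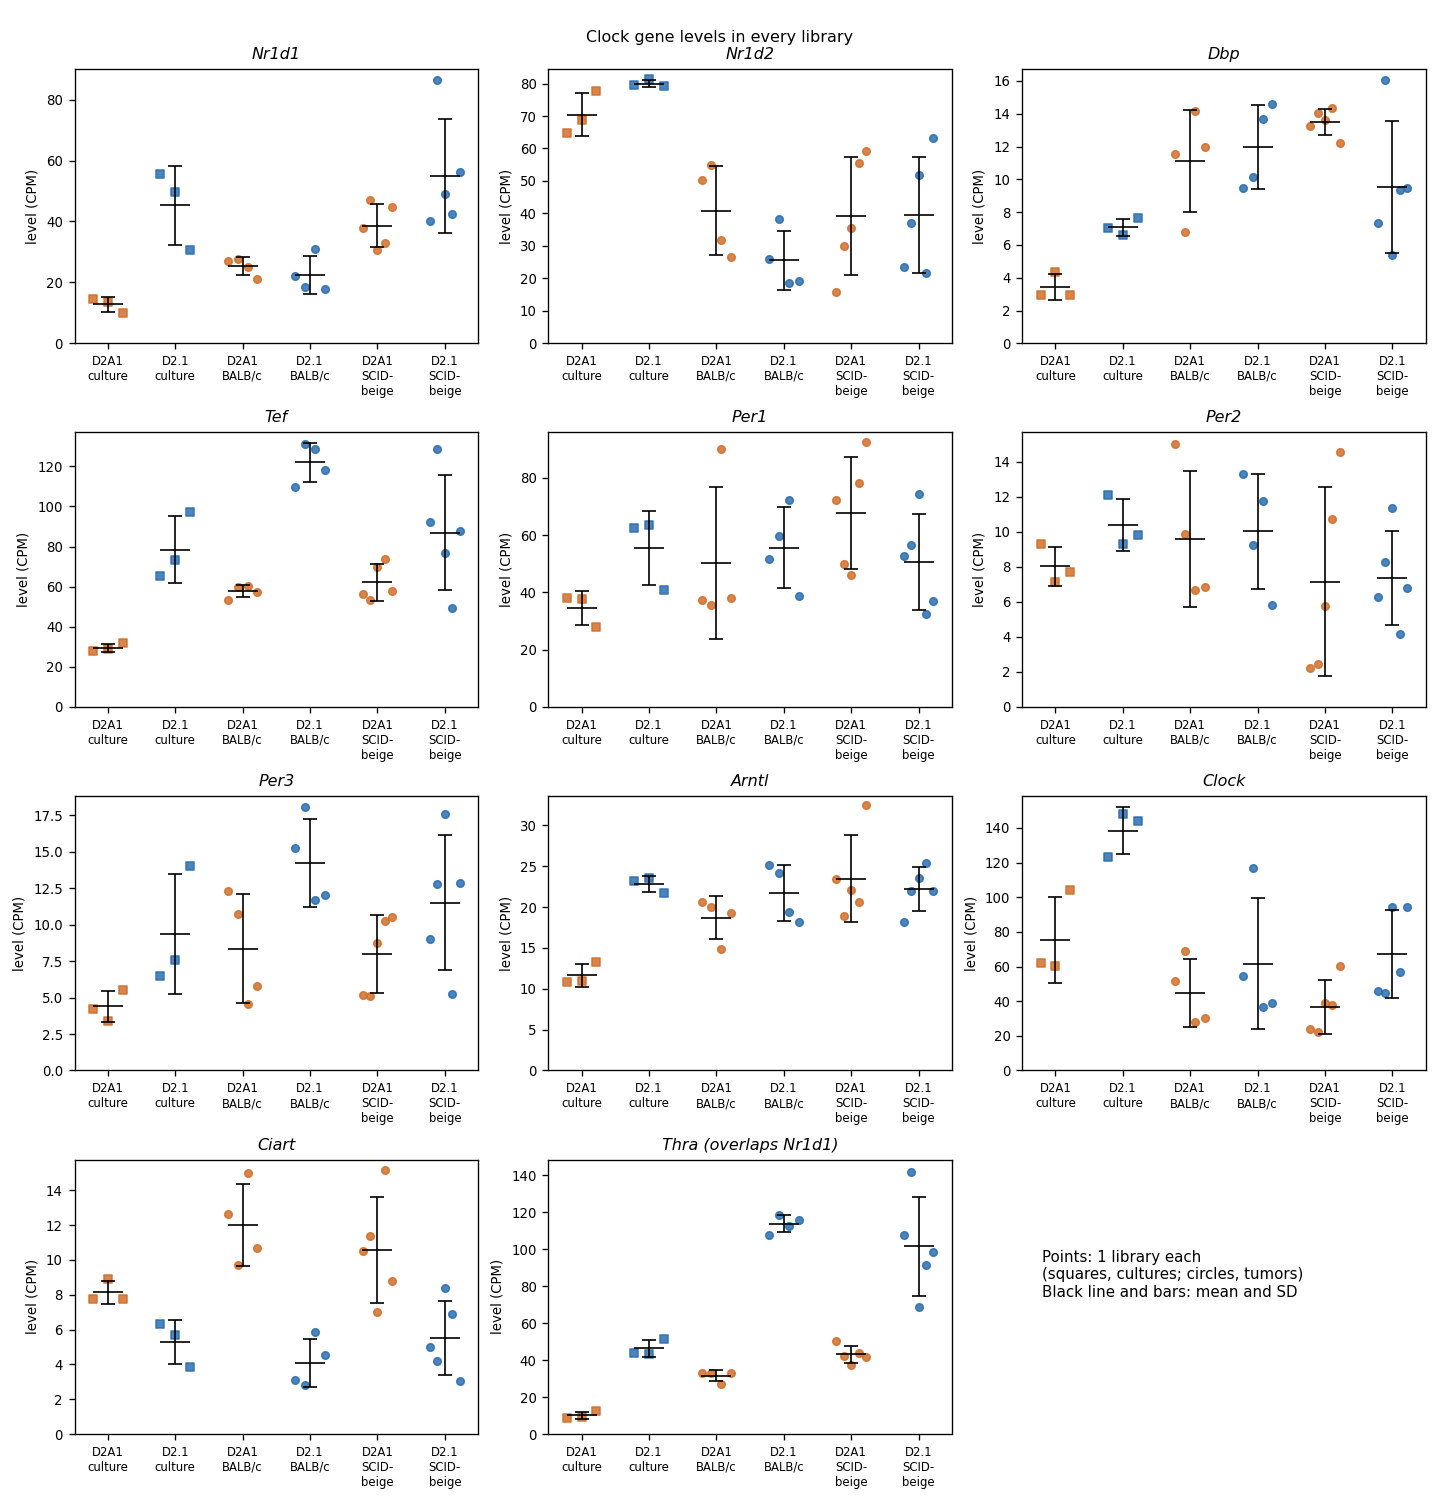
Level of each member and of Thra in CPM, from 0, in the 6 groups, with cultures as squares, tumors as circles, D2A1 in orange, D2.1 in blue and the mean and SD in black. D2A1 cultures sit lowest for Nr1d1 (10.0 to 14.5 CPM), Dbp and Tef, and Ciart is lower in D2.1 than in D2A1 tumors of BALB/c hosts with no overlap.

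In culture, D2.1 cells held more of 7 of the 10 clock genes than D2A1 cells. Nr1d1, Dbp, Tef, Per1, Per3, Arntl and Clock were higher by 1.60-fold to 3.52-fold and no member was called lower, with Ciart at an unadjusted p under 0.05 and called by DESeq2. In simulated data with changes of 1 on the log2 scale, 19.5% of DESeq2 calls were false here, against 7.33% for edgeR. Calls here are edgeR adjusted p under 0.05 over all genes tested. At this threshold 24.2% of 12489 genes were higher in D2.1, 20.7% lower, 44.9% in all. The median log2 fold change was 0.91 over the members and -0.02 over all genes.

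Positions are on GRCm38. The REV-ERB pair divided. Nr1d1 (ENSMUSG00000020889, chr11:98767932-98775333, minus strand) was at 55.5, 49.7 and 30.7 CPM in the D2.1 cultures and 14.5, 13.7 and 10.0 CPM in the D2A1 cultures. Every D2.1 culture was above every D2A1 culture, a log2 difference of 1.82 ± 0.24 (SE, adjusted p = 0.00041). Nr1d2 (ENSMUSG00000021775, chr14:18204054-18239127, minus strand) was at 79.5, 81.3 and 79.2 against 64.9, 68.8 and 77.7 CPM, which also did not overlap, but the log2 difference was 0.17 ± 0.12 and was not called (adjusted p = 0.26). Groups without overlap were found for 8 members that were higher in D2.1 and for Ciart, which was lower, and for 55.4% of all genes (28.9% higher, 26.6% lower). Thra, which overlaps Nr1d1, was higher in D2.1 by 2.17 ± 0.18 on the log2 scale (adjusted p = 2.1e-05).

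The D-box factors were both higher in D2.1. Tef (ENSMUSG00000022389, chr15:81802421-81826863, plus strand) was at 65.2, 73.1 and 97.1 CPM in D2.1 and 27.7, 28.9 and 31.8 CPM in D2A1. The log2 difference was 1.41 ± 0.17 (SE, adjusted p = 0.00028). Dbp, a gene with strong daily swings in many tissues (ENSMUSG00000059824, chr7:45705088-45710203, plus strand), was at 7.04, 6.58 and 7.63 against 2.95, 4.32 and 2.97 CPM, a log2 difference of 1.04 ± 0.24 (adjusted p = 0.0074). The activators followed the same direction. Arntl (ENSMUSG00000055116, chr7:113207465-113314126, plus strand) was at 23.2, 23.5 and 21.7 CPM in D2.1 and 10.8, 11 and 13.3 CPM in D2A1, a log2 difference of 0.95 ± 0.15 (adjusted p = 0.0011). Clock (ENSMUSG00000029238, chr5:76209868-76304792, minus strand) was at 123, 148 and 144 against 62.1, 60.1 and 104 CPM, a log2 difference of 0.87 ± 0.21 (adjusted p = 0.01).

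Among the repressors, Per1 (ENSMUSG00000020893, chr11:69095217-69109960, plus strand) was higher in D2.1 by 0.68 ± 0.20 on the log2 scale (adjusted p = 0.024) and Per3 (ENSMUSG00000028957, chr4:151003652-151044665, minus strand) by 1.08 ± 0.34 (adjusted p = 0.030). Per3 rested partly on the third D2.1 culture, with 14.1 CPM against 6.45 and 7.59 CPM in the others. Both calls were lost without single cultures. For Per1 the adjusted p was 0.085 without the first, 0.094 without the second D2.1 culture and 0.054 without the third D2A1 culture. For Per3 it was 0.071 without the third D2.1 culture, and 0.078 and 0.096 without the first and the second D2A1 culture. Per2 (ENSMUSG00000055866, chr1:91415982-91459324, minus strand) was at 12.1, 9.29 and 9.85 against 9.29, 7.12 and 7.70 CPM and was not called (log2 difference 0.36 ± 0.20, adjusted p = 0.18). Ciart (ENSMUSG00000038550, chr3:95878503-95882251, minus strand) was the only member with a lower value in D2.1, at 6.34, 5.66 and 3.87 against 7.75, 8.89 and 7.76 CPM. Its log2 difference of -0.63 ± 0.23 missed the threshold (adjusted p = 0.053), and passed it with the replicate number as a block (-0.65, adjusted p = 0.014), where 60.4% of all genes were called.

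The GC slope also separated the cultures, at 0.074 to 0.102 in D2.1 and -0.210 to -0.020 in D2A1. With this slope as a covariate, chosen after seeing the data, 3 members stayed called, against 24.3% of all genes. They were Tef, Arntl and Clock, and Nr1d1 was at 1.39 with adjusted p = 0.055. Because the slopes of the lines did not overlap, the covariate cannot separate slope from line.

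**Figure D2:**
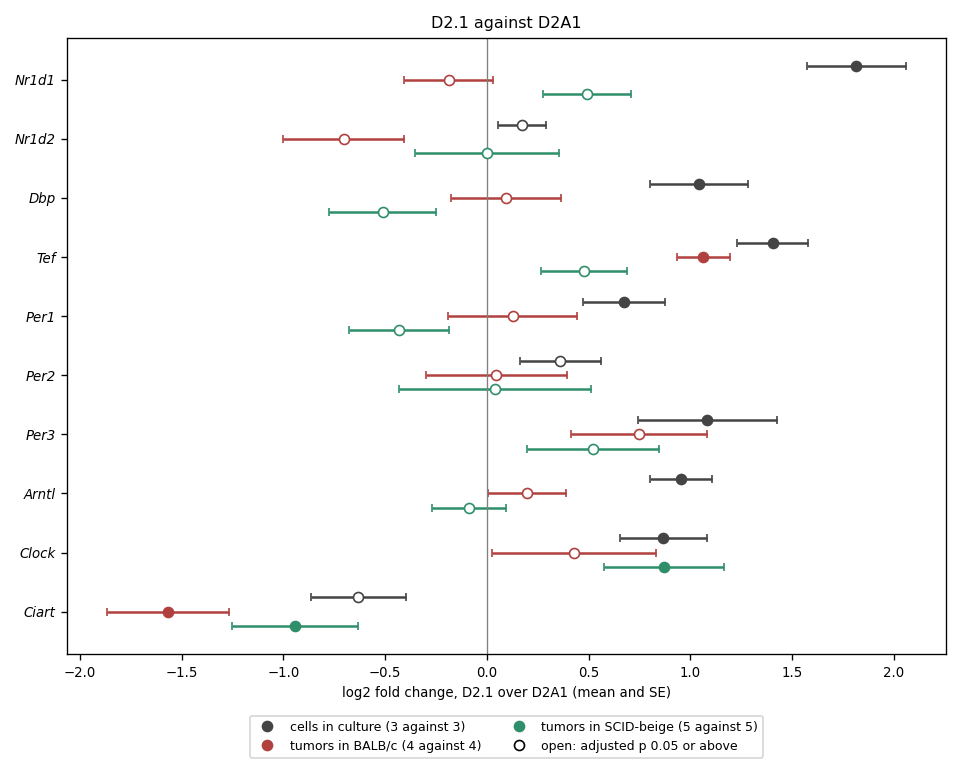
Fitted log2 fold change of D2.1 over D2A1 with its SE for each member in culture (black), in BALB/c tumors (red) and in SCID-beige tumors (green), filled where adjusted p was under 0.05 (Nr1d1 in tumors is a description). In culture 7 points are filled on the right, and in tumors only Tef, Clock and Ciart carry a filled point, with Ciart on the left in every setting.

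In tumors, 2 clock genes separated the lines in each host, and Ciart was lower in D2.1 in both hosts. In BALB/c hosts 1 member was called higher and 1 lower in D2.1, where 16.8% and 15.8% of 14953 genes were called in these directions. Tef was at 110, 131, 128 and 118 CPM in D2.1 and at 53.6, 59.9, 60.1 and 57.2 CPM in D2A1. Both groups were tight and did not overlap, a log2 difference of 1.06 ± 0.13 (SE, adjusted p = 0.00016). Ciart was at 3.10, 2.84, 5.83 and 4.55 CPM in D2.1 and 12.6, 9.69, 15.0 and 10.7 CPM in D2A1. It was 2.96-fold lower in D2.1 with no overlap, a log2 difference of -1.57 ± 0.30 (adjusted p = 0.0028). In either direction 32.6% of genes were called. These 2 were the only members without overlap, as were 34.5% of all genes.

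In SCID-beige hosts Clock was called higher and Ciart lower in D2.1, where 17.2% and 14.8% of 14355 genes were, 32.1% in all. Ciart was at 5.03, 4.17, 8.41, 6.90 and 3.07 CPM in D2.1 and 10.5, 11.4, 7.01, 15.1 and 8.80 CPM in D2A1. The groups overlapped through the third tumor of each, and the log2 difference was -0.94 ± 0.31 (adjusted p = 0.032). Clock was at 46.0, 44.9, 94.5, 56.8 and 94.5 against 24.2, 22, 39.0, 37.8 and 60.5 CPM, with overlap and a log2 difference of 0.87 ± 0.30 (adjusted p = 0.038). No member was free of overlap here, as 24.1% of all genes were. The calls were fragile. Ciart was lost without D2.1 tumor 1, 2 or 5 or without D2A1 tumor 4 (adjusted p = 0.056, 0.062, 0.073 and 0.091) and, at 0.050, without D2A1 tumor 2. Clock was lost without D2.1 tumor 3 or 5 or without any of D2A1 tumors 1 to 4 (adjusted p = 0.063 to 0.10), and also when all 4 tumor groups were fitted together (adjusted p = 0.068).

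The other members did not separate the lines in tumors at this threshold. Dbp, Per1, Per2 and Arntl had log2 differences between -0.51 and 0.20, and Per3 was at 0.75 ± 0.33 in BALB/c (adjusted p = 0.11) and 0.52 ± 0.32 in SCID-beige hosts (adjusted p = 0.25). Tef was at 0.48 ± 0.21 in SCID-beige hosts (adjusted p = 0.10) and Clock at 0.43 ± 0.40 in BALB/c hosts (adjusted p = 0.45). Nr1d2 was at -0.70 ± 0.30 in BALB/c (adjusted p = 0.096) and 0.00 ± 0.36 in SCID-beige hosts. Nr1d1 is given without a test because the D2.1 tumors were used to choose it. All line contrasts in tumors share their D2.1 libraries with that choice. Its log2 difference between lines was -0.19 ± 0.22 in BALB/c and 0.49 ± 0.22 in SCID-beige hosts, against 1.82 in culture. Thra stayed higher in D2.1 in both hosts, by 1.83 ± 0.14 (adjusted p = 7.7e-06) and 1.23 ± 0.18 (adjusted p = 0.0002), while the value for Nr1d1 changed sign between hosts. With the GC slope as a covariate, Per3 and Clock were called higher in D2.1 BALB/c tumors as well (log2 difference 1.24 and 1.03, adjusted p = 0.0021 and 5.4e-05), where 47.4% of all genes were called. GC slopes were -0.207 to 0.333 in the D2.1 and -0.312 to 0.103 in the D2A1 tumors of BALB/c hosts.

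The growth state was compared within each line, SCID-beige tumors against culture, on 34519 genes listed in both tables. Growth state and the table a library came from cannot be told apart. In D2A1, 6 members rose from culture to tumor and 2 fell, where 33.6% of 13869 genes rose and 24.5% fell, 58.1% in all. In D2.1, no member rose and 2 fell by edgeR and by DESeq2, none rose at an unadjusted p under 0.05, where 30.8% of 14111 genes rose and 22.3% fell, 53.1% in all. In simulated data edgeR recovered 35.5% of changes of 1 on the log2 scale in D2A1 and 16.5% in D2.1. Calls were therefore harder to reach in D2.1. Groups did not overlap for 5 members that rose and 1 that fell in D2A1, against 32.3% and 24.4% of genes, and for 2 that fell in D2.1, against 22.6%. The median log2 change of the members was 0.91 in D2A1 and 0.03 in D2.1, against 0.10 and 0.09 over all genes.

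Dbp rose most in D2A1, from 2.95, 4.32 and 2.97 CPM in culture to 13.2, 14, 13.6, 14.3 and 12.2 CPM in tumors. This was 3.92-fold, a log2 change of 1.97 ± 0.23 (SE, adjusted p = 2.4e-05). In D2.1 the same gene went from 7.04, 6.58 and 7.63 CPM to 7.33, 16.1, 5.40, 9.34 and 9.46 CPM, with overlap and a log2 change of 0.44 ± 0.34 (adjusted p = 0.29). Nr1d1 rose in D2A1 to 37.9, 46.9, 30.6, 33.0 and 44.8 CPM, with all tumors above all cultures and a log2 change of 1.59 ± 0.21 (adjusted p = 8e-05). In D2.1 the tumors held 40.2, 86.3, 49.0, 42.3 and 56.3 CPM against 30.7 to 55.5 CPM in culture, a log2 change of 0.29 ± 0.27 that is given without a test.

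Arntl, the activator that REV-ERB proteins repress, rose alongside Nr1d1 in D2A1. It was at 10.8 to 13.3 CPM in culture and at 23.4, 18.9, 22, 20.6 and 32.5 CPM in tumors, a log2 change of 1.0 ± 0.22 (adjusted p = 0.0021). In D2.1 it was not called, at 21.7 to 23.5 CPM in culture and 18.2, 22, 23.6, 25.4 and 21.9 CPM in tumors (log2 change -0.02 ± 0.17, adjusted p = 0.93). Tef rose in D2A1 by 1.07 ± 0.17 (adjusted p = 0.00028), Per1 by 0.96 ± 0.25 (adjusted p = 0.0058) and Per3 by 0.85 ± 0.33 (adjusted p = 0.044). With the replicate number as a block, Per3 was lost (0.50, adjusted p = 0.13) and Per2 was called lower (-1.30, adjusted p = 0.0034), with 67.0% of all genes called. Tumors 4 and 5 have no same-numbered culture, so these block values rest on tumors 1 to 3 against the cultures. Per2 was at 2.24, 2.47 and 5.78 CPM in tumors 1 to 3 and at 10.7 and 14.6 CPM in tumors 4 and 5. Over all tumors and without the block, Per2 was not called (-0.18 ± 0.53, adjusted p = 0.80), and Ciart was at 0.37 ± 0.26 (adjusted p = 0.24). The call on Per3 was also lost without single libraries, with adjusted p between 0.079 without SCID-beige tumor 3 and 0.16 without culture 2. Tumors 4 and 5 and culture 1 had the same effect. The D2.1 changes of these genes were not called, at 0.16 ± 0.26 for Tef, -0.12 ± 0.27 for Per1, -0.48 ± 0.31 for Per2, 0.31 ± 0.39 for Per3 and 0.08 ± 0.37 for Ciart (adjusted p = 0.21 to 0.87).

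Nr1d2 and Clock fell from culture to tumor in both lines. Clock went from 123, 148 and 144 to 44.9 to 94.5 CPM in D2.1 (log2 change -1.03 ± 0.26, adjusted p = 0.0064) and from 60.1 to 104 down to 22 to 60.5 CPM in D2A1 (-1.05 ± 0.31, adjusted p = 0.013). Nr1d2 went from 79.2 to 81.3 CPM to 21.5 to 63.1 CPM in D2.1 (-1.01 ± 0.31, adjusted p = 0.017) and from 64.9 to 77.7 CPM to 15.7 to 59.2 CPM in D2A1 (-0.86 ± 0.34, adjusted p = 0.047). The D2A1 call on Nr1d2 was lost without any culture and without SCID-beige tumor 2 or 3 (adjusted p = 0.074 to 0.13), the D2A1 call on Clock without culture 3 (0.087), and the D2.1 call on Nr1d2 without culture 2 (0.052). Both genes have transcripts poor in GC, with 41.8% for Nr1d2 and 40.9% for Clock, and GC slopes were lower in every culture than in every tumor of its line. They were -0.474 to -0.297 in D2A1 cultures against -0.058 to 0.463 in D2A1 tumors, and -0.225 to -0.191 against -0.121 to 0.360 in D2.1. With the slope as a covariate neither fall was called, where 51.3% of genes were called in D2A1 and 38.4% in D2.1. Clock was then at -0.37 in D2.1 (adjusted p = 0.12) and, reversed, at 0.46 in D2A1 (adjusted p = 0.14), and Nr1d2 was at -0.38 and 0.47 (adjusted p = 0.35 and 0.40). The 6 rises in D2A1 stayed called with the covariate, and Per2 was called as well, higher in tumors (2.02, adjusted p = 0.014). Because the slopes of cultures and tumors did not overlap, the covariate cannot separate slope from growth state. The cause of the falls was not tested.

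**Figure D3:**
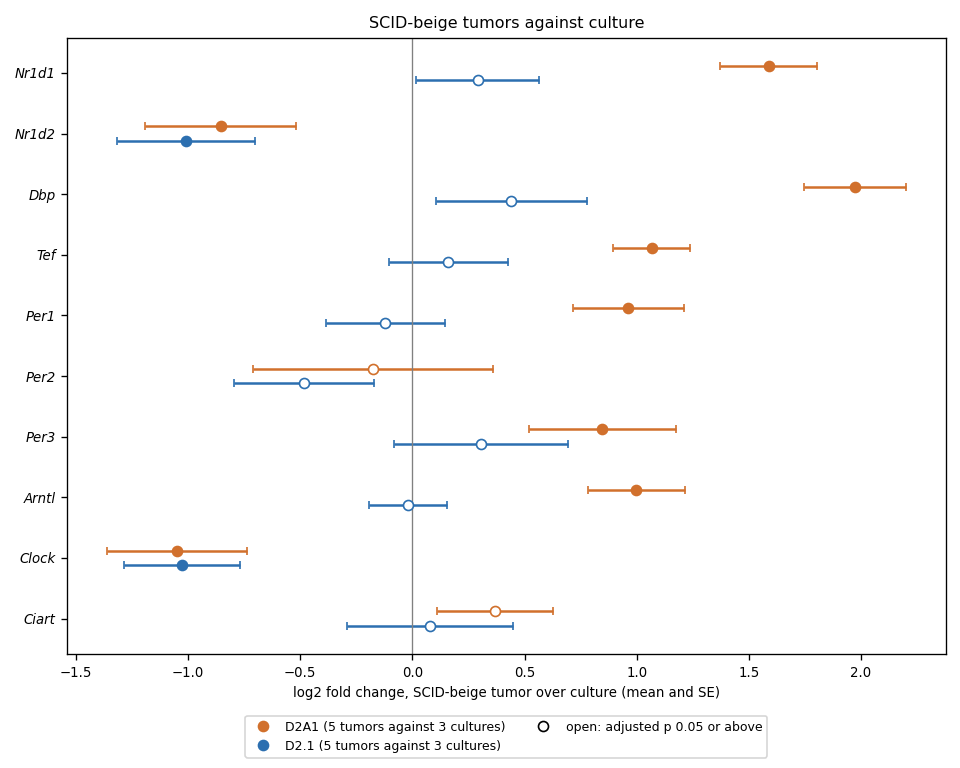
Fitted log2 fold change of SCID-beige tumors over cultures with its SE for each member in D2A1 (orange) and D2.1 (blue), filled where adjusted p was under 0.05. Nr1d1, Dbp, Tef, Per1, Per3 and Arntl are filled on the right in D2A1 only, and Nr1d2 and Clock are filled on the left in both lines.

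The difference between the lines in this change was tested as an interaction, which is also the test of whether the line difference in culture differs from that in SCID-beige tumors. It was added after seeing the data. Of the 9 members other than Nr1d1, 2 differed, both with a D2.1 change minus D2A1 change below 0. Of 15077 genes, 8.18% were called below 0, whether they rose less or fell more in D2.1, and 12.8% in either direction. Dbp changed less in D2.1 by 1.54 ± 0.41 on the log2 scale (adjusted p = 0.017), and Arntl by 1.03 ± 0.26 (adjusted p = 0.013). The call on Dbp was lost without D2A1 culture 1 or 3 (adjusted p = 0.058 and 0.052). Per1 at -1.10 ± 0.38 (adjusted p = 0.066) and Tef at -0.92 ± 0.33 (adjusted p = 0.075) missed the threshold. Nr1d1 was at -1.31 ± 0.36, given as a description. Per3 was at -0.56 ± 0.53, Per2 at -0.32 ± 0.67, Ciart at -0.30 ± 0.45, Nr1d2 at -0.18 ± 0.50 and Clock at 0.00 ± 0.42, none of them called. This contrast uses the same cultures and SCID-beige tumors as the 3 comparisons above, so it is not separate evidence.

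Between hosts, the D2.1 values of Nr1d1 restate the choice of the set and are given as a description. In D2.1 tumors Nr1d1 was at 22.1, 18.5, 31.1 and 17.7 CPM in BALB/c hosts and 40.2, 86.3, 49.0, 42.3 and 56.3 CPM in SCID-beige hosts. The groups did not overlap, the BALB/c level was 2.41-fold lower and the log2 difference was -1.27 ± 0.26 (SE). The difference ranged from -1.47 to -1.03 when single tumors were left out, and was -1.14 without D2.1 BALB/c tumors 1 and 4. Of all genes, 1.25% were lower without overlap, a share from which nothing is read here.

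The other 9 members overlapped between hosts in D2.1. Nr1d2 was at -0.59 ± 0.32 on the log2 scale, Tef at 0.51 ± 0.22, Per2 at 0.48 ± 0.32, Dbp at 0.35 ± 0.32, Per3 at 0.34 ± 0.30, Per1 at 0.16 ± 0.25, Arntl at -0.01 ± 0.18, Clock at -0.11 ± 0.34 and Ciart at -0.41 ± 0.37. These values were positive for 5 and negative for 4 of the 9, with no test. Arntl was at 25.1, 24.1, 19.4 and 18.1 CPM in BALB/c and at 18.2 to 25.4 CPM in SCID-beige hosts. Thra was at 108 to 118 CPM in BALB/c and 68.7 to 142 CPM in SCID-beige hosts, with a log2 difference of 0.18 ± 0.20. The 6 T cell markers moved with the host, at 57.1 to 152 CPM in BALB/c and 5.05 to 13.0 CPM in SCID-beige D2.1 tumors, none at 0 in all libraries of either group. Their part in the Nr1d1 level was not tested.

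D2A1 tumors, whose libraries were not in the contrast that chose Nr1d1, had it lower in BALB/c hosts too. It was at 27.2, 27.7, 24.9 and 21.2 CPM in BALB/c and 37.9, 46.9, 30.6, 33.0 and 44.8 CPM in SCID-beige hosts. No tumor overlapped, as in 2.09% of all genes in this direction, and the level was 1.53-fold lower. An exact two-sided permutation test of this gene alone gave p = 0.0159, the smallest that 4 against 5 tumors allow. It was not among the planned tests, and tests were chosen with earlier results of these data known. In the fit over 14572 genes the log2 difference of -0.61 ± 0.18 did not pass (adjusted p = 0.16), as 1.17% of genes did (0.906% higher, 0.261% lower). DESeq2, with 3.88% of genes called, gave adjusted p = 0.022, and the GC slope as a covariate, with 5.85% called, gave 0.030. In simulated data for this comparison with changes of 1 on the log2 scale, 17.6% of DESeq2 calls were false, against 5.71% for edgeR. T cell markers were at 6.20 to 20.2 CPM in BALB/c and 0.677 to 2.89 CPM in SCID-beige D2A1 tumors, with Cd3g at 0 in all of the latter.

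None of the 10 members was called between hosts in D2A1 tumors by edgeR, and only Nr1d1 had an unadjusted p under 0.05 or a call by DESeq2. The next largest values were Per2 at 0.43 ± 0.51, Per1 at -0.42 ± 0.31 and Arntl at -0.32 ± 0.19 on the log2 scale (adjusted p = 0.91, 0.79 and 0.70). Clock was at 0.30 ± 0.34, Dbp at -0.27 ± 0.21, Ciart at 0.19 ± 0.24, Tef at -0.10 ± 0.14, Per3 at 0.08 ± 0.35 and Nr1d2 at 0.07 ± 0.35 (adjusted p = 0.82 to 0.98). Per1 rested on a wide spread, with 90.1 CPM in BALB/c tumor 3 and 35.7 to 38.1 CPM in the other 3. Thra was lower in BALB/c hosts with no overlap, at 27.1 to 33.2 against 37.5 to 50.3 CPM, and its log2 difference of -0.44 ± 0.14 was not called (adjusted p = 0.22). In D2A1 the overlapping pair had values of the same sign, and in D2.1 of opposite sign.

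Tumor by tumor, no relation between Nr1d1 and the 9 other members passed the test. Values were log2 CPM of 18 tumors with each group's mean removed, and 22 relations with Nr1d1 were computed. Pearson r ran from -0.16 for Clock to 0.38 for Dbp over the 9 other members, Spearman rho from -0.17 for Clock to 0.33 for Per2, and none was called (permutation test, adjusted p = 0.88 or higher for r). For Dbp the permutation p was 0.23 for r and 0.42 for rho, with rho at 0.22. Without D2.1 SCID-beige tumor 2 and D2.1 BALB/c tumor 3, which lay farthest out in Nr1d1, r for Dbp was -0.24, so its positive value rested on those 2 tumors. Arntl was at r = 0.10 and rho = 0.12 (permutation p = 0.71 and 0.65). The 6 T cell markers were at r = 0.15 and rho = -0.02 (permutation p = 0.56 and 0.93), and the macrophage markers at r = 0.11 and rho = -0.02 (permutation p = 0.72 and 0.94). Endothelial markers had the value farthest from 0 among the marker sums, r = -0.47 and rho = -0.35 (permutation p = 0.11 and 0.24), which was 0.14 without the 2 tumors.

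Several members varied with the GC slope of their library, and the cause was not tested. Over the same 18 tumors r with the slope was -0.97 for Clock, -0.83 for Nr1d2, -0.73 for Per3, -0.61 for Arntl, -0.58 for Per2 and 0.58 for Dbp. It was 0.44 for Ciart, 0.18 for Nr1d1, 0.13 for Per1 and 0.08 for Tef. Several members also followed a length slope, the change of log2 CPM per doubling of transcript length. Its r was 0.95 for Clock, 0.80 for Nr1d2, 0.77 for Per3, 0.69 for Per2, 0.65 for Arntl and -0.60 for Dbp. It was -0.44 for Ciart, -0.13 for Nr1d1, -0.06 for Per1 and 0.02 for Tef. GC content and transcript length were not told apart. These are descriptions, since the slopes were estimated from the genes of the same libraries. Clock and Nr1d2 shared r = 0.81 with each other, and 0.04 after the GC slope was regressed out of both. Per2 and Per3 went together at r = 0.79 and kept 0.66 after it, and Tef and Per3 went from 0.43 to 0.71. Nr1d1 and Nr1d2 went from 0.14 to 0.52.

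**Figure D4:**
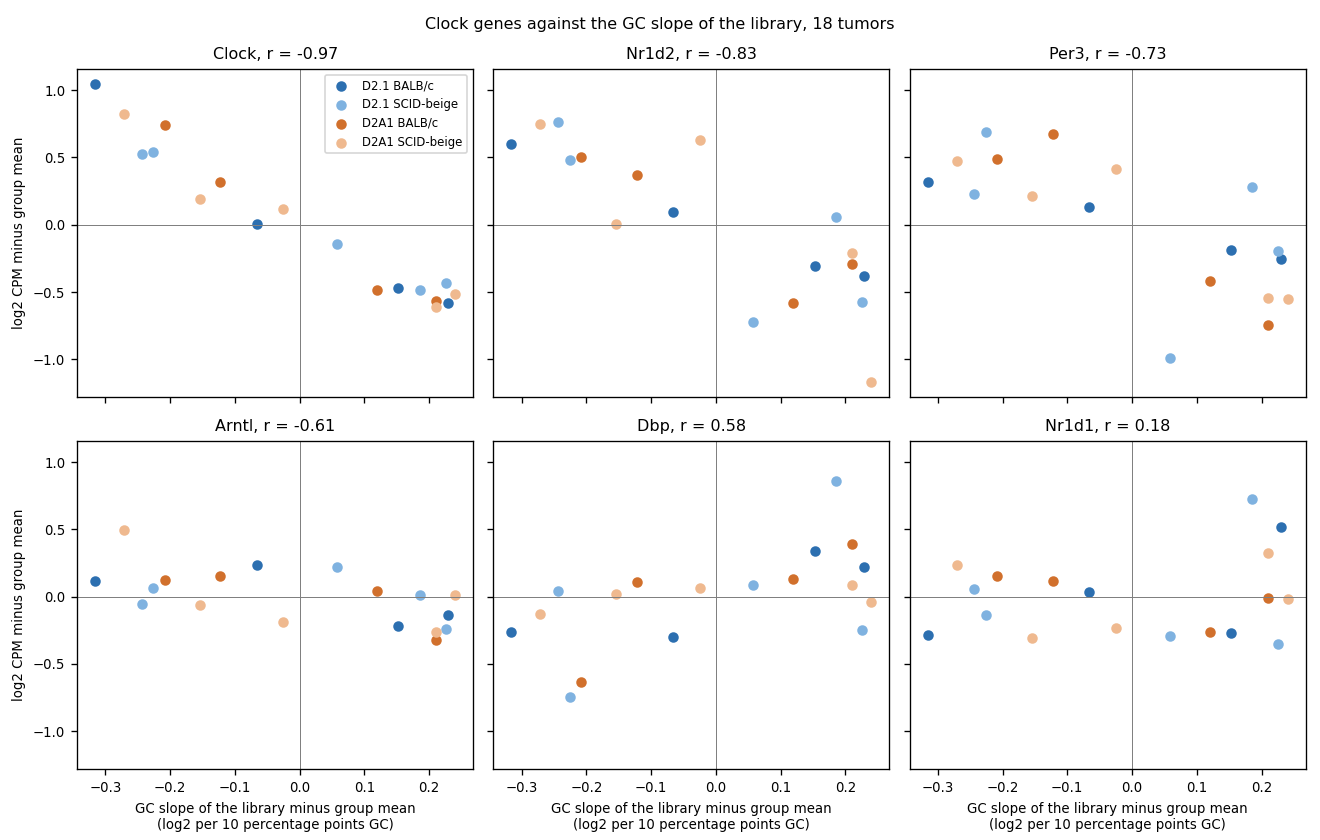
Deviation of log2 CPM from the group mean against the deviation of the library's GC slope (log2 per 10 percentage points of GC) for 6 members in 18 tumors, coloured by group. Clock falls along a line (r = -0.97), Nr1d2 and Per3 fall with more scatter, Dbp rises (r = 0.58) and Nr1d1 shows little relation (r = 0.18).

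The genes most like Nr1d1 over the 18 tumors lay outside the clock lists. Among 10857 protein-coding genes with at least 5 CPM on average, Dcaf5 (r = 0.78), Wdr91 (0.74), Plcd3 (0.73), E4f1 (0.72) and Eml3 (0.72) were closest, as a description. The central 95% of genes lay between -0.43 and 0.46. Most of this likeness rested on the 2 tumors farthest out in Nr1d1. Without them r was 0.67 for Dcaf5, 0.096 for Wdr91, 0.21 for Plcd3, 0.32 for E4f1 and 0.17 for Eml3. At the other end were Rars2 (-0.72), Slc38a1 (-0.72), Anxa3 (-0.73), Atp1b3 (-0.76) and, last, Usp2 (-0.77). Without the 2 tumors r was -0.84 for Rars2, -0.33 for Slc38a1, -0.44 for Anxa3, -0.68 for Atp1b3 and -0.80 for Usp2. Usp2 encodes a deubiquitinase with daily rhythm in many tissues and belongs to the wider clock list. It was at 10.8, 15.2, 7.72 and 13.3 CPM in D2.1 BALB/c tumors, at 12.7, 9.21, 11.8, 11.6 and 10.4 CPM in D2.1 SCID-beige tumors and at 5.50, 3.21, 4.97, 4.98 and 3.81 CPM in D2A1 SCID-beige tumors. In these 3 groups the tumor with the most Nr1d1 had the least Usp2. In D2A1 BALB/c tumors, at 5.48, 5.62, 9.39 and 11.4 CPM, the tumor with the most Nr1d1 was the one with the second lowest Usp2. Usp2 was singled out after its values were seen.

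A list of 21 other clock genes was read beside the members. In culture 15 were tested, with 3 higher and 2 lower in D2.1, against 24.2% and 20.7% of all genes. The 3 largest were Usp2 (log2 difference 2.58 ± 0.36, adjusted p = 0.00049), Bhlhe41, a repressor of Clock and Arntl (2.28 ± 0.23, adjusted p = 8.2e-05), and Nampt, a clock-controlled enzyme of NAD synthesis (-1.13 ± 0.17, adjusted p = 0.00077). Bhlhe41 was at 68.4, 75.0 and 41.2 CPM in D2.1 and 13.2, 13.7 and 10.8 CPM in D2A1 cultures. In BALB/c tumors 19 were tested, with 3 higher and 2 lower, and in SCID-beige tumors 18, again with 3 higher and 2 lower, where 32.6% and 32.1% of all genes were called in either direction. None of these shares was above that of all genes. Bhlhe41 was higher in D2.1 in both, by 1.58 ± 0.17 (adjusted p = 7.4e-05) and 1.35 ± 0.22 (adjusted p = 0.00041). Usp2 was higher in D2.1 SCID-beige tumors (1.30 ± 0.23, adjusted p = 0.00077), and Nfil3, which competes for D-boxes, was lower there (-0.75 ± 0.20, adjusted p = 0.012). Npas2, a relative of Clock, was higher in D2.1 BALB/c tumors (1.93 ± 0.52, adjusted p = 0.017), a call that was lost without D2.1 BALB/c tumors 1 and 4 (adjusted p = 0.16). Between hosts in D2A1 tumors none of 18 was called by edgeR or DESeq2, and 4 had an unadjusted p under 0.05 (Cry1, Nampt, Timeless and Usp2, higher in BALB/c).

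From culture to SCID-beige tumors, 8 of 19 other clock genes rose and 5 fell in D2A1, and 8 of 20 rose and 4 fell in D2.1. Of all genes 33.6% rose and 24.5% fell in D2A1, and 30.8% and 22.3% in D2.1. Npas2 led in D2A1, with 0 counts in the 3 cultures and 48 in the 5 tumors, at least 11-fold higher against a floor of 3 counts over the cultures. In D2.1 it had 4 counts in culture and 135 in tumors, a 24.7-fold ratio with a 95% exact interval of 9.44 to 92.1 for counting error. Rora, an activator at ROR response elements, rose in D2.1 by 3.39 ± 0.81 (adjusted p = 0.0045) and in D2A1 by 2.68 ± 0.64 (adjusted p = 0.0040), from 3 to 6 counts per culture. Usp2 rose in D2A1 by 2.38 ± 0.40 (adjusted p = 0.00036). In the interaction, Bhlhe40 changed less in D2.1 by 1.31 ± 0.37 (adjusted p = 0.025), with the call lost without D2.1 culture 1 or 2 or D2A1 culture 1 or 2 (0.062 to 0.086). Hlf was called in the opposite direction on few counts, with 9 to 34 in each D2A1 culture and 0 to 3 in each D2.1 culture. The call on Hlf was lost without D2A1 culture 3 or D2.1 culture 2 or 3 (adjusted p = 0.068 to 0.081).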

How the data were processed

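RNA-seq was made from 6 cultures and 18 tumors. The authors deposited read counts per gene and the FPKM derived from them, in separate tables for cells and tumors. The submitters' processing notes name STAR and mm10, while the counter, annotation release and strand setting were not given in the sources used here. The deposited counts were not normalized before the tests. For 100% of the genes checked, counts and FPKM of all libraries in a table implied 1 gene length within 1%.

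Counts were tested with edgeR 4.0.16 (limma 3.58.1, R 4.3.3), with TMM scaling, filterByExpr, the quasi-likelihood F test and Benjamini-Hochberg adjustment over all genes tested, each comparison fitted on its own groups, and the line by growth state interaction on 4 groups. Levels between comparisons are CPM with TMM scaling over 24 libraries. DESeq2 1.42.0, its size factors, other filters, a replicate block, the GC slope as a covariate and left-out libraries were alternatives. Python 3.11.15, numpy 2.4.6, scipy 1.17.1, pandas 2.3.3 and matplotlib 3.10.9 were used for the remainder, with 100000 permutations for correlations. The members, the gene and marker lists and the tests were chosen with earlier results of these data known. All members may be named, and of the 21 other clock genes the 3 with the largest called change, with genes that overlap a member. One gene of that list is counted but not reported here. The genes most like Nr1d1 are the 5 highest and 5 lowest r among protein-coding genes with a mean of at least 5 CPM. Gene models were matched to GRCm38.

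Counts of replicates differed by more than sampling noise in all 38 pairs (chi-square 5.20 to 129 times its degrees of freedom). Groups share replicate numbers, but the labels do not say that same-numbered libraries belong together. Deviations of same-numbered libraries were therefore correlated. Every pair was above 0.1 between the culture groups (0.184 to 0.490) and between D2A1 SCID-beige tumors and cultures (0.133 to 0.275). The block is therefore given there. SCID-beige tumors 4 and 5 have no same-numbered culture, so against culture the block rests on tumors 1 to 3. The comparisons of 2 groups and the correlation test were tested on simulated data, and the interaction was not. A count of 3 was taken as the floor, and intervals and floors cover counting error only.

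Marker lists gave these summed levels beside those in the results. Skeletal muscle markers were at 34.9 to 350 CPM in D2.1 BALB/c and 2.13 to 272 CPM in D2.1 SCID-beige tumors. Neutrophil markers were at 7.90 to 110 CPM in tumors, endothelial markers at 59.5 to 282 CPM, and the mammary tumor line markers at 3688 to 11174 CPM in all groups. Fibroblast markers were at 1986 to 2793 CPM in D2.1 cultures, 82.3 to 105 CPM in D2A1 cultures and 1118 to 14634 CPM in tumors.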

Additional observations from a re-analysis of the deposited data

Results flagged for a closer look

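In D2A1 BALB/c tumors, Per1 was at 90.1 CPM in tumor 3 and at 35.7 to 38.1 CPM in the other 3, a gap of 0.956 of the whole range. This was 1 of 40 groups of 4 or 5 tumors looked at, and about 1 in 20 is set apart by chance. The change from culture to SCID-beige tumors differed between the lines for Arntl (-1.03 on the log2 scale, D2.1 minus D2A1, adjusted p = 0.013) and for Dbp (-1.54, adjusted p = 0.017), by the edgeR test of the difference itself. The causes were not tested.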

How the results depend on the processing

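The number of members called changed under some alternatives. With the GC slope as a covariate, added after seeing the data, it was 3 between the cultures (24.3% of all genes), 4 between lines in BALB/c tumors (47.4%), 1 (Nr1d1) between hosts in D2A1 (5.85%), 0 for D2.1 tumors against culture (38.4%) and 7 for D2A1 tumors against culture (51.3%), where Nr1d2 and Clock were lost and Per2 was gained. DESeq2 also gave 1 between hosts in D2A1. The replicate block gave 5 between lines in BALB/c tumors (47.6% of all genes), where same-numbered tumors were not all above 0.1 (lowest r 0.0984). In the 2 comparisons where all same-numbered libraries were above 0.1, it changed the calls given beside the results and no other call on a member. The block with the GC slope gave 0 for D2A1 tumors against culture, where 1 residual degree of freedom was left. Between the cultures the number was 6 whichever single culture was left out, as either Per1 or Per3 was lost. Without single libraries it was 0 (without D2.1 tumor 5 or D2A1 tumor 2 or 4) to 3 between lines in SCID-beige tumors. It was 2 to 3 between lines in BALB/c tumors and 6 to 8 for D2A1 tumors against culture. For D2.1 tumors against culture it was 1 to 2, and for the difference between lines 1 to 3.

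Log2 values that changed sign were mostly near 0, and the cause was not tested. With the GC slope they were Dbp -0.19 and Per1 -0.042 between lines in BALB/c and Nr1d2 -0.14 in SCID-beige tumors. Between hosts in D2A1 they were Nr1d2 -0.25, Per3 -0.33 and Clock -0.10. Against culture they were Dbp -0.030, Tef -0.096 and Arntl 0.081 in D2.1, and Nr1d2 0.47, Per2 2.02, Clock 0.46 and Ciart -0.083 in D2A1, with Clock -0.59 for the difference between lines. The block gave Per1 0.16 for D2.1 tumors against culture and Clock -0.036 for the difference between lines. The block with the GC slope gave Nr1d2 0.31, Per2 2.87, Ciart -1.29 and Thra -0.057 for D2A1 tumors against culture. Nr1d2 between lines in SCID-beige tumors was -0.022 with DESeq2 and with its size factors, -0.013 in 1 fit of 4 groups and -0.044 with at least 10 counts, where Per2 was -0.0032 and Arntl in D2.1 against culture 0.022. With no filter Clock was -0.0069 for the difference between lines.

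Values without single libraries spanned 0 as follows. Between lines in BALB/c tumors Clock was -0.059 to 0.71, Dbp -0.087 to 0.22, Per1 -0.027 to 0.56 and Per2 -0.12 to 0.34. In SCID-beige tumors Arntl was -0.19 to 0.050, Nr1d2 -0.25 to 0.19 and Per2 -0.23 to 0.47. Between hosts in D2A1 Nr1d2 was -0.16 to 0.27 and Per3 -0.17 to 0.25. Against culture in D2.1 Arntl was -0.073 to 0.023, Ciart -0.11 to 0.24, Per1 -0.31 to 0.0055 and Tef -0.013 to 0.33, and in D2A1 Per2 was -0.60 to 0.058. For the difference between lines Clock was -0.30 to 0.25, Nr1d2 -0.39 to 0.018 and Per2 -0.55 to 0.11.

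No correlation of a member with Nr1d1 passed the adjusted threshold under any alternative run. Values of r of opposite sign were Dbp -0.30, Tef -0.69, Per2 -0.0090, Clock 0.20 and Ciart 0.090 in D2A1 tumors alone, Arntl -0.036 in D2.1 tumors alone, Dbp -0.035, Tef -0.091, Per2 -0.17, Per3 -0.050 and Clock 0.037 with no centring, Dbp -0.24, Tef -0.26 and Clock 0.235 without the 2 tumors farthest out, Clock 0.074 with the GC slope regressed out and Ciart 0.0086 without D2.1 BALB/c tumors 1 and 4. Without single tumors r was -0.050 to 0.21 for Arntl, -0.25 to 0.13 for Ciart, -0.050 to 0.52 for Dbp and -0.13 to 0.43 for Tef.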
